A study of Mus musculus with 6 samples.

Results

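Eph receptors and ephrins were described in cultured intestinal stem cells of the mouse treated with INT-777, a synthetic bile acid derivative that activates the receptor TGR5, or with its solvent DMSO. The 10 genes were taken from a list of names, 6 receptor genes (Ephb2, Ephb3, Ephb4, Epha1, Epha2 and Epha4) and 4 ephrin genes (Efnb1, Efnb2, Efna1 and Efna4). They are 10 of the 22 Eph and ephrin genes of the mouse and 10 of the 54838 gene IDs counted, and each matched a single Ensembl ID. All 10 passed the filter on low counts.

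Eph receptors are receptor tyrosine kinases whose ligands, the ephrins, are themselves bound to the membrane of the neighbouring cell, so that signals pass both ways at cell contacts: forward through the receptor and reverse through the ephrin. A receptors bind mostly ephrins held by a lipid anchor (Efna genes) and B receptors mostly ephrins that span the membrane (Efnb genes), with Epha4 able to bind both. In the mouse intestine Ephb2 and Ephb3 are targets of Wnt signalling with high expression at the crypt base, ephrin-B1 and ephrin-B2 are highest toward the crypt top, and the repulsion between both sides keeps cells in their place along the crypt.

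The study asked which genes respond to stimulation of TGR5, the bile acid receptor encoded by Gpbar1, in intestinal stem cells. Cells with high green fluorescence were sorted from intestines of mice of the strain B6.129P2-Lgr5tm1(cre/ERT2)Cle/J, which carry an eGFP-IRES-CreERT2 cassette in Lgr5, the stem cell receptor for R-spondin. All 6 cultures therefore carried the reporter allele, each replicate was a pool of cells from 4 mice, and the sources used here give no age for the mice. About 200000 cells per replicate were set in Matrigel, with 20000 in each 10 µL drop, in medium that held 1 µM JAG-1 (a peptide of a Notch ligand) and 3 µM CHIR99021, which inhibits GSK3 and so activates Wnt signalling. From 4 h after embedding, 3 cultures received INT-777 at 30 µM and 3 received DMSO, 1 of each on each of 3 days, so that replicates are numbered by day. The sample labels give 12 h of treatment and the design text 16 h.

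The libraries held 45682340 to 47905087 read pairs assigned to genes. Gpbar1 itself had 4, 1 and 4 counts with INT-777 and 4, 0 and 5 counts with DMSO, by day. Both libraries of day 3 stood apart from those of days 1 and 2, which were much alike: the mean chi-square per gene was 3.236 between the INT-777 libraries of days 1 and 2 and 2.44 between the DMSO libraries of these days, against 50.1 to 91.5 for pairs that included day 3. Epithelial identity was clear, with Epcam at 849 CPM in INT-777 cultures and 847 CPM in DMSO cultures (means of 3 libraries). CPM are counts scaled to library size by TMM. Other epithelial markers differed between the groups. With the day as a block Krt8, Krt18 and Krt19 were higher with INT-777, and Cdh1, Cldn3 and Cldn7 lower. These were 3 of 7 each way, against 11.1% and 10.3% of all genes. Krt18 (edgeR adjusted p = 0.0462) and Cldn3 (edgeR adjusted p = 0.0416) also passed without the block. Lgr5, the gene used for the sort, had 61.8 CPM with INT-777 and 69.7 CPM with DMSO. Markers of other cell kinds were unequal between the libraries. The summed level of 8 goblet markers ran from 2901 to 12450 CPM in INT-777 and from 5565 to 28229 CPM in DMSO, with the highest value of each group on day 3, and 7 of the 8 were lower with INT-777 in the fit with the day as a block, in which 10.3% of all genes were called lower and 11.1% higher. The 8 Paneth markers summed to 2267 to 3636 CPM in INT-777 and to 3443 to 3967 CPM in DMSO, with 4 of the 8 lower in that fit. Enteroendocrine markers were also highest on day 3, at 2018 CPM with INT-777 and 2548 CPM with DMSO. Immune markers were few and did not move as one on day 3. Gzma had 75 counts with INT-777 and 79 with DMSO on that day. Ptprc had 61 with INT-777 and 70 with DMSO, and Cd8a 38 with INT-777 and 33 with DMSO. On days 1 and 2 each of these had 0 to 4 counts. Cd74 was lower on day 3, at 0.313-fold its level of days 1 and 2 with INT-777 and 0.283-fold with DMSO. On days 1 and 2 Cd74 had 644 and 584 counts with INT-777 and 816 and 788 with DMSO. The cells that gave the Cd74 counts were not tested. Of 10 villus enterocyte markers 3 were higher (Alpi, Krt20 and Vil1) and 3 lower (Apoa1, Sis and Anpep) in the fit with the day block. The part of these cells in the values below was not tested, and in such bulk libraries fewer cells of a type and less RNA per cell cannot be told apart. Endothelial cells, where Ephb4 and Efnb2 are also known, left little trace: 8 endothelial markers summed to 1.09 to 3 CPM in INT-777 and to 1.09 to 3.28 CPM in DMSO, and Emcn and Erg had 0 counts in all 6 libraries. The 10 stromal markers summed to 10.1 to 40.2 CPM in INT-777 and 7.92 to 31.2 CPM in DMSO, mostly through Vim.

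Among the 10 genes, levels per exon length spanned more than an order of magnitude, and the highest by this measure were the receptors Ephb4 and Epha2. Levels are given here as CPM per kb of merged exon. The order depends on that length, which counts all annotated exons, whether or not these cells use them. By CPM alone Ephb2 was the highest, with means of 286 with INT-777 and 250 with DMSO. Ephb4 had 162 and 175 CPM, and Epha2 180 and 133 CPM. The merged exons of Ephb2 span 12608 nt, against 4640 nt for Ephb4 and 4674 nt for Epha2. Ephb4, a receptor known best from blood vessels as the partner of ephrin-B2, stood at 34.9 ± 1.44 in INT-777 cultures and 37.8 ± 1.54 in DMSO cultures (SD, n = 3 each, as in this whole paragraph). Epha2, a receptor of epithelia whose usual ligand is ephrin-A1, stood at 38.6 ± 1.94 with INT-777 and 28.5 ± 5.16 with DMSO. After these came Efnb1 (26.5 ± 1.28 with INT-777 and 26.3 ± 1.17 with DMSO), Efnb2 (20.2 ± 0.243 with INT-777 and 20 ± 1.35 with DMSO) and Ephb2 (22.6 ± 1.12 with INT-777 and 19.8 ± 1.39 with DMSO). Epha1 and Ephb3 lay lower, at 8.99 ± 0.286 and 8.29 ± 1.42 in INT-777 and at 9.18 ± 0.408 and 9.16 ± 1.99 in DMSO. The A ephrins were low: Efna4 had 6.3 ± 0.318 with INT-777 and 7.16 ± 0.434 with DMSO, and Efna1 4.85 ± 0.383 with INT-777 and 5 ± 0.349 with DMSO. Epha4, at 3.05 ± 0.191 with INT-777 and 2.732 ± 0.432 with DMSO, was the lowest of the 10 per exon length in both groups.

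Taken by the DMSO means, the order was Ephb4, Epha2, Efnb1, Efnb2, Ephb2, Epha1, Ephb3, Efna4, Efna1 and Epha4. In DMSO cultures the ranges of 3 neighbouring pairs overlapped, namely Epha2 with Efnb1, Efnb2 with Ephb2, and Epha1 with Ephb3. In INT-777 cultures, of these neighbours, the ranges of Epha1 and Ephb3 alone overlapped, while Epha2 lay wholly above Ephb4 and Ephb2 wholly above Efnb2. The first place differed between the groups: per exon length the ratio of Ephb4 to Epha2 was 0.897, 0.907 and 0.914 with INT-777 and 1.17, 1.18 and 1.735 with DMSO on days 1, 2 and 3. Epha2 was thus above Ephb4 in all 3 INT-777 libraries and below it in all 3 DMSO libraries. Added together, the 3 EphB receptors had 65.9 ± 1.68 CPM per kb with INT-777 and 66.8 ± 2.33 with DMSO, and the 3 EphA receptors 50.6 ± 2.35 with INT-777 and 40.4 ± 5.76 with DMSO. B ephrins summed to 46.7 ± 1.44 with INT-777 and 46.2 ± 2.52 with DMSO, and A ephrins to 11.1 ± 0.125 with INT-777 and 12.2 ± 0.495 with DMSO.

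**Figure D1:**
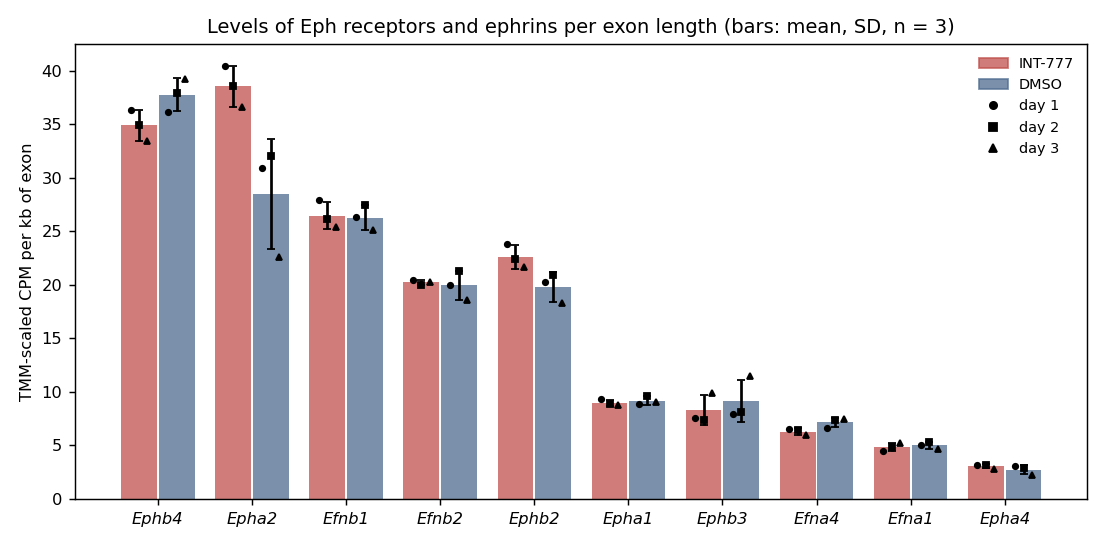
Bars give the mean and SD of TMM-scaled CPM per kb of merged exon for each gene (n = 3 per group), INT-777 left of DMSO, with 1 marker per library and its shape for the day. Genes run from the highest to the lowest DMSO mean; Epha2 is the gene whose groups stand farthest apart, at 38.6 with INT-777 and 28.5 with DMSO.

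Epha2 and Ephb2 were higher in INT-777 cultures than in DMSO cultures once the day was taken into account, by 1.37-fold and 1.14-fold, and the other 8 genes did not pass in either fit. Tested with treatment as the only term, 0 of the 10 passed in either direction (edgeR quasi-likelihood test, Benjamini-Hochberg adjusted p under 0.05 over 15998 genes), against 0.688% of all genes called higher and 0.763% called lower, 1.45% in either direction. At an unadjusted p under 0.05 there were 2 of the 10, Ephb2 and Epha2, against 2621 of all 15998 genes. DESeq2 called 1 of the 10, Epha2 (adjusted p = 0.0262), and 4.99% of all genes. Limma-voom called 0 of the 10 and 1.34% of all genes. Cultures of 1 day came from 1 sort, and with the day as a block Ephb2 and Epha2 passed as higher and none as lower, where 11.1% of all genes passed as higher and 10.3% as lower, 21.3% in either direction. At 2 of 10, the share of the family was close to that of all genes and is no result about the family as a whole. Of the 10 genes, 5 had positive and 5 negative log2 changes, with a median of −0.01, and the median over all genes tested was 0.0031. The INT-777 libraries lay wholly above the DMSO libraries for Ephb2 and Epha2, as they did for 13.6% of all genes, and wholly below for Efna4, as for 11% of all genes, so that 3 of 10 genes did not overlap, against 24.5% of all. INT-777 was above DMSO on all 3 days for Ephb2, Epha2 and Epha4 (26.8% of all genes) and below it on all 3 days for Ephb3 and Efna4 (25.3%), 5 of 10 in all, against 52% of all genes.

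**Figure D2:**
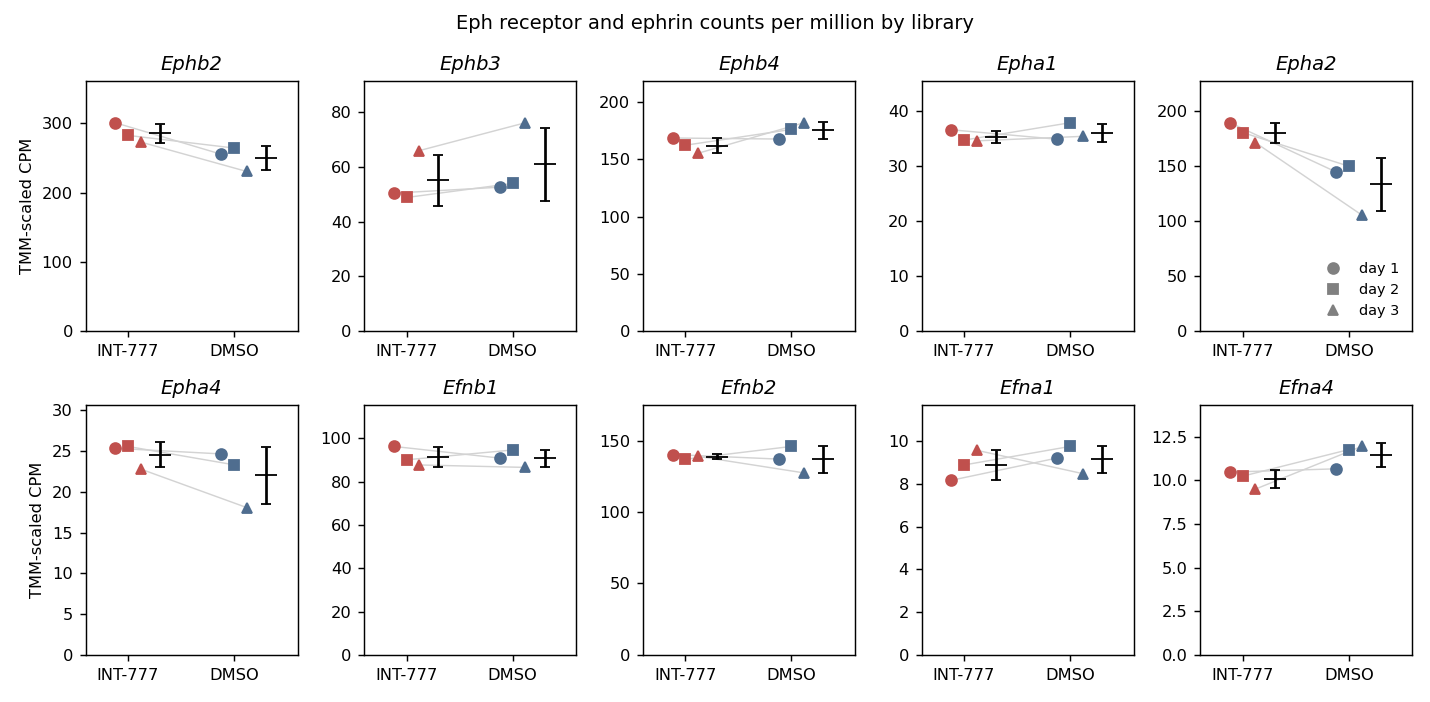
TMM-scaled CPM of each gene in each library, INT-777 left of DMSO, with marker shape for the day, grey lines joining cultures of the same day, and the mean with SD (n = 3) beside each group; each panel has its own vertical axis from 0. For Epha2 the 3 INT-777 libraries lie between 171 and 189 CPM, all above the DMSO libraries at 106 to 150 CPM.

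Epha2 (ENSMUSG00000006445, GRCm38 chromosome 4, 141301240 to 141329384, plus strand) was the member with the largest difference. It had 189, 180 and 171 CPM in the INT-777 libraries of days 1, 2 and 3, against 145, 150 and 106 CPM in the DMSO libraries. INT-777 was above DMSO on every day, and the lowest library of all was DMSO on day 3. The log2 fold change was 0.44 ± 0.13 (SE), a 1.35-fold difference, with a 95% interval of 0.13 to 0.74 (edgeR adjusted p = 0.181). With the day as a block it was 0.45 ± 0.07, 1.37-fold (edgeR adjusted p = 0.00335), and 10.7% of all genes had a larger absolute change in that fit. By day the log2 differences were 0.39, 0.27 and 0.70, the largest on day 3. Epha2 also passed in the blocked fit with both libraries of any 1 day left out. Log2 changes were then 0.48, 0.53 and 0.32 without days 1, 2 and 3. These fits called 20%, 12% and 24.1% of all genes, and rest on a spread shared over few libraries. Without DMSO replicate 3 the unblocked change was 0.28. Without both libraries of day 3 Epha2 passed unblocked as well (edgeR adjusted p = 8.27e-10), as did 26.8% of all genes. That fit rests on days 1 and 2, whose libraries were much alike.

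Ephb2 (ENSMUSG00000028664, GRCm38 chromosome 4, 136647539 to 136835988, minus strand), the receptor that marks the crypt base, had 301, 283 and 273 CPM in the INT-777 libraries, against 255, 264 and 231 CPM in the DMSO libraries of days 1, 2 and 3. The groups did not overlap, although the lowest INT-777 library lay close to the highest DMSO library. Its log2 fold change was 0.19 ± 0.07, 1.14-fold, with a 95% interval of 0.03 to 0.35 (edgeR adjusted p = 0.2365), and 0.19 ± 0.04 with the day as a block (edgeR adjusted p = 0.0044). The daily log2 differences were 0.24, 0.10 and 0.24. Ephb2 also passed in the blocked fit without both libraries of day 1, day 2 or day 3, at 0.17, 0.23 and 0.16. These fits called 20%, 12% and 24.1% of all genes, and rest on a spread shared over few libraries. Without DMSO replicate 3 the unblocked change was 0.12. Without both libraries of day 3 Ephb2 passed unblocked (edgeR adjusted p = 0.000181), as did 26.8% of all genes. Ephb2 lies 4.47 Mb from Epha2 on the same chromosome.

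The bases upstream of the RefSeq starts of these genes were read for motifs chosen after the values were seen. These motifs were the cAMP response element, a site of CREB, which is activated when TGR5 raises cAMP, and the TCF/LEF site of Wnt signalling. All 10 genes matched the RefSeq promoter table (GRCm38.p6), with 11 windows, since Efna1 has more than 1 start. Shown are the 250 bases before the start of the 2 genes called higher with the day block and of the 2 that differed between days, each 5′ to 3′ on the strand of its gene; capitals mark TGACG or its reverse complement, the short form of the cAMP response element. They lie at chr4:141300971-141301220 (plus strand, Epha2), chr4:136836013-136836262 (minus, Ephb2), chr16:21204545-21204794 (plus, Ephb3) and chr1:77515089-77515338 (minus, Epha4).
Epha2: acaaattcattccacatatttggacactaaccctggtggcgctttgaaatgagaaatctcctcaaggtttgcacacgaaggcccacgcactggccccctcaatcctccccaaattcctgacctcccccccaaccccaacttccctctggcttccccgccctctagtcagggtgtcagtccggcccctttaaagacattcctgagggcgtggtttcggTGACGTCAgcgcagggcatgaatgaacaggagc
Ephb2: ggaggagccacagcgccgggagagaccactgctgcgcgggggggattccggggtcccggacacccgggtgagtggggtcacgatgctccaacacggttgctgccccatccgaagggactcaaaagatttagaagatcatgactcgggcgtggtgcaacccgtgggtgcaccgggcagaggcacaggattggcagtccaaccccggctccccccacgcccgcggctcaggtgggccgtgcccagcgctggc
Ephb3: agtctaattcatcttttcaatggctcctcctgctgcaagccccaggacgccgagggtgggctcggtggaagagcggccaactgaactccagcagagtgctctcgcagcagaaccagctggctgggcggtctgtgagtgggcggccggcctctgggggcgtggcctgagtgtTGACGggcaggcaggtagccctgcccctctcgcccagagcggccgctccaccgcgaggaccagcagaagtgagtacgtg
Epha4: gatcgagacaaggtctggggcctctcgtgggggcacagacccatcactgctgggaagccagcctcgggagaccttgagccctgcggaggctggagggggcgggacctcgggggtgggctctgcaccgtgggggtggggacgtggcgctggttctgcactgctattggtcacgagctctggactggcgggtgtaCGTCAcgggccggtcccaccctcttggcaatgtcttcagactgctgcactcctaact
The Epha2 window holds the full palindrome TGACGTCA, which begins 33 bases before the start and contains the short form on both strands. Of the 11 windows it was the 1 that held these 8 letters, and 1.55% of 32851 windows of this length in the table did. The short form was, on either strand, in windows of 5 of the 10 genes (Epha2, Epha4, Ephb3, Efnb1 and Efnb2), against 17.8% of all windows, and the Ephb2 window had none. For TCF/LEF only the letters CTTTGAT were searched, on either strand. They were in none of the 11 windows and in 3.21% of all. Other forms of the TCF/LEF site were not searched, and the Epha2 window holds the near form ctttgaa. A match is a string of letters in this window and does not show that a factor binds there.

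The other EphB receptors lay on the other side of 0, without a call. Ephb3 (chromosome 16, 21204755 to 21223305), which acts with Ephb2 and in the mouse places Paneth cells at the crypt base, had 50.4, 48.8 and 65.9 CPM with INT-777 on days 1, 2 and 3, against 52.6, 53.9 and 76.1 CPM with DMSO. INT-777 was below DMSO within each day, while the groups overlapped because day 3 was high in both. Its log2 fold change was −0.15 ± 0.18 (edgeR adjusted p = 0.746), and −0.14 ± 0.05 with the day as a block (edgeR adjusted p = 0.0533). Without DMSO replicate 3 the value had the other sign, 0.04. Per exon length the ratio of Ephb2 to Ephb3 was 3.145, 3.05 and 2.18 with INT-777 by day, and 2.56, 2.58 and 1.6 with DMSO, higher with INT-777 on each day. Ephb4 (chromosome 5, 137350109 to 137378669) had 169, 162 and 155 CPM with INT-777, against 168, 176 and 182 CPM with DMSO. Day 1 was level between the groups and days 2 and 3 were lower with INT-777, for a log2 fold change of −0.11 ± 0.06 (edgeR adjusted p = 0.359), which did not pass with the day as a block either (edgeR adjusted p = 0.0984).

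Of the other EphA receptors, Epha4 (chromosome 1, 77367185 to 77515088), which binds both ephrin classes, had 25.3, 25.6 and 22.8 CPM in the INT-777 libraries, against 24.6, 23.3 and 18.1 CPM in the DMSO libraries. INT-777 was higher on each day, by 0.04, 0.13 and 0.33 on the log2 scale, and the ranges overlapped. The log2 fold change was 0.16 ± 0.12 (edgeR adjusted p = 0.545), and 0.17 ± 0.07 with the day as a block (edgeR adjusted p = 0.0931). The value moved with single libraries: unblocked it was 0.02 without DMSO replicate 3 and 0.24 without DMSO replicate 1. Epha1 (chromosome 6, 42358487 to 42373268), the founding member of the family, had 36.6, 34.7 and 34.6 CPM with INT-777, against 34.9, 37.9 and 35.4 CPM with DMSO. These ranges overlapped, and the log2 fold change was −0.03 ± 0.06 with a 95% interval of −0.16 to 0.10 (edgeR adjusted p = 0.835). Zyx, on the other strand, shares 6.01% of the exonic bases of Epha1, and these unstranded counts left reads from the shared part out as ambiguous.

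The membrane-spanning ephrins had overlapping ranges and intervals centred near 0. Efnb1 (chromosome X, 99136130 to 99148991), a ligand of Ephb2 and Ephb3, had 96.3, 90.1 and 87.8 CPM in INT-777 cultures, against 90.9, 94.7 and 86.6 CPM in DMSO cultures. Its log2 fold change was 0.01 ± 0.06 (edgeR adjusted p = 0.945), and the 95% interval of −0.12 to 0.14 bounds the difference. Efnb2 (chromosome 8, 8617434 to 8661242), the ligand of Ephb4, had 140, 137 and 139 CPM with INT-777, within the 137, 146 and 127 CPM seen with DMSO, at a log2 fold change of 0.02 ± 0.06 and a 95% interval of −0.12 to 0.16 (edgeR adjusted p = 0.895). Neither passed with the day as a block, and both had daily differences of either sign.

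The lipid-anchored ephrins, which signal to EphA receptors, were the lowest of the 4 ephrins. Efna4 (chromosome 3, 89333390 to 89338028) had 10.5, 10.2 and 9.5 CPM with INT-777, all below the 10.7, 11.8 and 11.9 CPM with DMSO, although on day 1 the gap was small. The log2 fold change was −0.19 ± 0.09 (edgeR adjusted p = 0.337), and it did not pass with the day as a block (edgeR adjusted p = 0.136). An antisense gene shares 10.5% of the exonic bases of Efna4. Efna1 (chromosome 3, 89271733 to 89281142), the usual ligand of Epha2, had 8.16, 8.88 and 9.57 CPM in INT-777 libraries, against 9.21, 9.74 and 8.47 CPM in DMSO libraries. It was lower with INT-777 on days 1 and 2 and higher on day 3, and the log2 fold change of −0.04 ± 0.10 had a 95% interval of −0.28 to 0.19 (edgeR adjusted p = 0.867). Efna1, Efna3 and Efna4 lie side by side within 66.3 kb, a stretch with no other protein-coding gene.

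**Figure D3:**
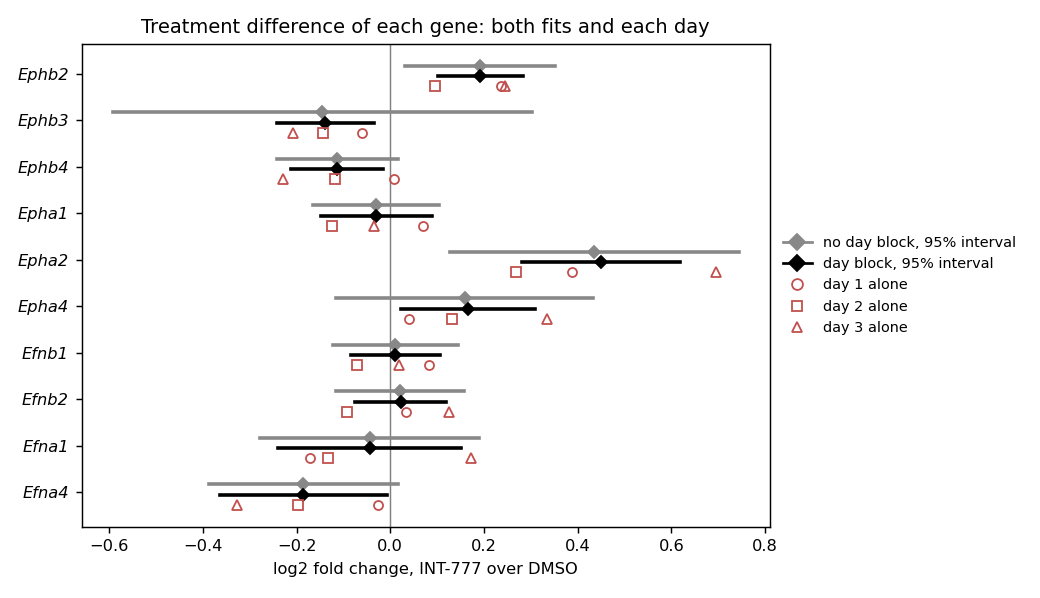
Log2 fold change of INT-777 over DMSO for each gene, with the fit without the day block in grey and with it in black (diamonds, 95% intervals from the fits' degrees of freedom) and the difference within each day as open markers. The 3 daily values of Epha2 lie at 0.27 to 0.70 and those of Ephb2 at 0.10 to 0.24, whereas those of Efnb1, Efnb2, Efna1, Epha1 and Ephb4 fall on both sides of 0.

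Between days, Ephb3 and Epha4 were the genes of the 10 that differed, both through day 3. In the F-test of the day terms beside treatment, 2 of the 10 passed, against 20.5% of all genes (edgeR). Ephb3 was higher on day 3 than on days 1 and 2, 1.33-fold in INT-777 cultures and 1.43-fold in DMSO cultures (edgeR adjusted p = 2.5e-05), as 11.9% of all genes were called and higher in both groups. On the same day the summed Paneth markers stood at 2267 CPM with INT-777 and 3443 CPM with DMSO, the lowest of each group, a sum made up mostly of Lyz1, Defa24 and Itln1. Paneth markers did not move as one: Mmp7 was 1.16-fold its level of days 1 and 2 with INT-777 and 1.48-fold with DMSO, and Defa22 0.144-fold with INT-777 and 0.124-fold with DMSO. The part of these cells in the Ephb3 value was not tested. Epha4 was lower on day 3, at 0.896-fold with INT-777 and 0.755-fold with DMSO (edgeR adjusted p = 0.0296), as were 8.61% of all genes, and DESeq2 did not call it. Epha2 on day 3 was 0.927-fold its level of days 1 and 2 with INT-777 and 0.718-fold with DMSO, and its day terms did not pass (edgeR adjusted p = 0.0806). With both libraries of day 1 or of day 2 left out Epha2 did pass, as did 24.8% and 19% of all genes. Those fits rest on a spread shared over few libraries. Without day 3 none of the 10 differed between days 1 and 2, as 0 of all genes did (edgeR, 462 at an unadjusted p under 0.05). RNA integrity numbers were lowest on day 3, at 9 with INT-777 and 8.7 with DMSO, so that integrity, cell mix and sort cannot be told apart on that day.

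**Figure D4:**
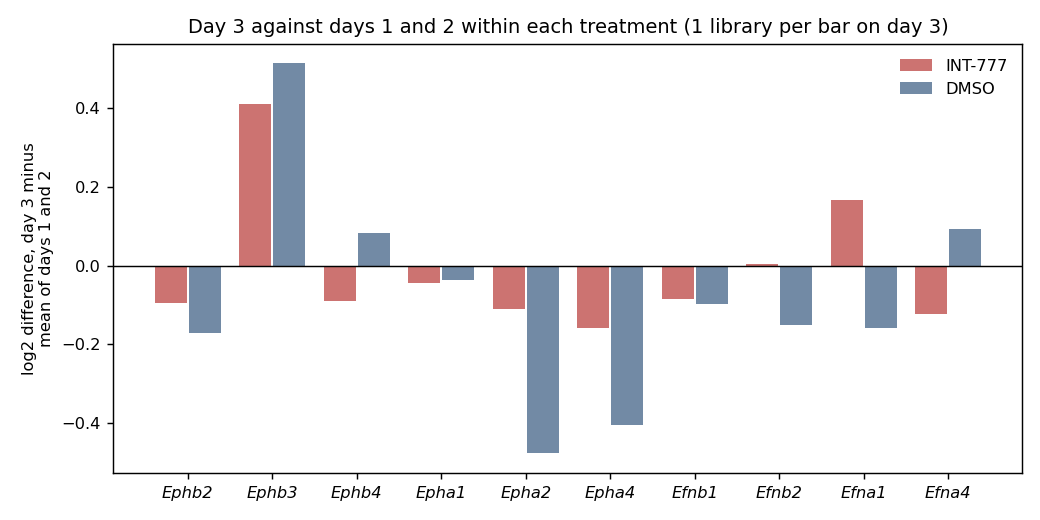
Log2 difference between the day 3 library and the mean of the libraries of days 1 and 2 within INT-777 (left bar) and DMSO (right bar) for each gene; there is 1 library per group on day 3, so bars carry no error. Ephb3 has the tallest positive bars, 0.41 in INT-777 and 0.51 in DMSO, and Epha2 (−0.48) and Epha4 (−0.41) have their lower values in DMSO.

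Of the other 12 Eph and ephrin genes, Efna3 and Efnb3 had from 239 to 816 counts in each library, Efna2 had 50 to 85, Epha7 34 to 74 and Ephb6 7 to 22. The filter kept these 5, and 0 passed in either direction (edgeR, with and without the day block), 0 had an unadjusted p under 0.05 without the block, and DESeq2 and limma-voom called 0. Efna3, the neighbour of Efna1 and Efna4, had 17.2, 17.1 and 15.7 CPM with INT-777, against 16.8, 16.1 and 12.3 CPM with DMSO (log2 fold change 0.14 ± 0.12), and 14.1% of its exonic bases lie in an antisense gene. Efnb3, the third membrane-spanning ephrin, had 6.59, 5.81 and 6.03 CPM with INT-777, against 5.19, 5.79 and 5.93 CPM with DMSO (log2 fold change 0.12 ± 0.11). Epha7 was rare and lower with INT-777 on each day, at 47, 34 and 51 counts against 52, 58 and 74 with DMSO (log2 fold change −0.51 ± 0.24, edgeR adjusted p = 0.336). The 7 genes that the filter removed (Epha3, Epha5, Epha6, Epha8, Epha10, Ephb1 and Efna5) had at most 17 counts in any library. Ephb1 and Epha6 had 0 counts in all 6 libraries, which allows up to 0.0107 CPM over the libraries together, from 3 counts and for counting error only.

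Among genes that carry the signal on from Eph receptors, Vav3 was the one past the threshold. Of 30 genes of forward signalling, adaptors and kinases among them, 1 fell and none rose (edgeR), with a list median of −0.04. Of all genes 0.763% were called lower and 0.688% higher in this fit. At an unadjusted p under 0.05 there were 7 of the 30, against 2621 of all 15998 genes. DESeq2 called 1 of the 30 and 4.99% of all genes, and limma-voom 1 of the 30 and 1.34% of all. The 1 that fell was Vav3, an exchange factor that acts downstream of Eph receptors, with 6.4, 6.21 and 6.1 CPM in INT-777 libraries, against 9.01, 8.57 and 8.71 CPM in DMSO libraries (log2 fold change −0.49 ± 0.09, edgeR adjusted p = 0.0452, and 0.00114 with the day as a block). All 3 INT-777 libraries were below all DMSO libraries. Next by p was Acp1, a low molecular weight phosphatase that acts on Eph receptors, at 0.16 ± 0.05 (edgeR adjusted p = 0.189), which shares 14.6% of its exonic bases with Alkal2. With the day as a block 3 were higher (Vav2, Abl2 and Acp1) and 3 lower (Vav3, Kalrn and Sipa1l1), 3 of 30 each way, near the 11.1% and 10.3% of all genes.

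Partners of reverse signalling and the proteases that cut ephrins and Eph receptors had no member past the threshold without the block. In the list of 9 reverse signalling genes and scaffolds, 8 were tested and 0 were called with or without the day block (edgeR; 0 at an unadjusted p under 0.05, and 0 by DESeq2 and limma-voom), with a median of 0.04. The smallest p were those of Dvl2 (log2 fold change −0.14 ± 0.08), which shares 19.7% of its exonic bases with neighbours, and of Rgs3, a regulator that binds B ephrins (−0.09 ± 0.06). Of 7 cleavage genes, 0 were called without the block (edgeR). At an unadjusted p under 0.05 there were 2 of the 7, against 2621 of all 15998 genes. DESeq2 called 1 of the 7 and 4.99% of all genes, and limma-voom 0 of the 7 and 1.34% of all. With the day as a block 2 of 7 fell, where 10.3% of all genes were called lower. They were Adam10, the metalloprotease that sheds ephrins, at 173, 168 and 170 CPM with INT-777 and 200, 194 and 181 CPM with DMSO (log2 fold change −0.17 ± 0.05, adjusted p = 0.184, and 0.0076 with the block, edgeR), and Aph1b, a subunit of gamma-secretase (−0.44 ± 0.12, adjusted p = 0.147, and 0.000982 with the block, edgeR).

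Among genes of the crypt base, where Ephb2 and Ephb3 are normally found, 8 of 12 had negative log2 changes, as had 7892 of all 15998 genes. The log2 change of Ephb3 was negative too (−0.15), while that of Ephb2 was positive (0.19), neither of them called in this fit. Of the 12, 1 fell and none rose (edgeR), where 0.763% of all genes were called lower and 0.688% higher, with a list median of −0.12. Smoc2, a matrix protein gene of the stem cell signature, had 163, 164 and 169 CPM with INT-777, against 222, 218 and 239 CPM with DMSO (log2 fold change −0.45 ± 0.05, edgeR adjusted p = 0.0141). Axin2, the Wnt feedback gene, followed at −0.19 ± 0.05 (edgeR adjusted p = 0.123). With the day as a block Lgr5, Olfm4, Smoc2, Axin2, Sox9 and Slc12a2 were lower, 6 of 12 against 10.3% of all genes, and Ascl2 and Myc higher, 2 of 12 and near the 11.1% of all genes. Of 8 nuclear effectors of Wnt signalling 0 were called without the block (edgeR). At an unadjusted p under 0.05 there were 2 of the 8, against 2621 of all 15998 genes. DESeq2 called 1 of the 8 and 4.99% of all genes, and limma-voom 0 of the 8 and 1.34% of all. Tcf7, a transcription factor of the TCF/LEF family, had 56.4, 54 and 52.1 CPM with INT-777, against 47.2, 49.6 and 37.7 CPM with DMSO, and was higher with the block (0.28 ± 0.06, edgeR adjusted p = 0.00377). The coactivator gene Bcl9 was lower in that fit (−0.24 ± 0.05, edgeR adjusted p = 0.00435), as was Bcl9l, so that 1 of 8 was higher and 2 of 8 lower, against 11.1% and 10.3% of all genes.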

How the data were processed

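RNA from 3 INT-777 and 3 DMSO cultures of sorted cells was sequenced as pairs of 100 nt. Per the submitters' processing notes, FastQC, STAR 2.73a and edgeR 3.24.3 were used with the builds GRCm38 and mm10. Counts in the deposited files are whole numbers of read pairs for each gene, before any normalisation. The unstranded column 2 was used; a pair that fits overlapping genes counts for none. Lines that name no gene stayed out, so that 74.52 to 75.65% of pairs were used. The sources used here do not give the annotation's version. Of 54838 gene IDs, 54809 matched GENCODE M21.

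The tests ran in edgeR 4.0.16 under R 4.3.3 (filterByExpr, which kept 15998 genes; TMM; robust quasi-likelihood test, two-sided, Benjamini-Hochberg adjustment, threshold 0.05), with DESeq2 1.42.0 and limma 3.58.1 as alternatives, and with pandas 2.3.3 and matplotlib 3.10.9 in Python 3.11.15. Each standard error is the size of the log2 change divided by the root of its F statistic. Log2 values of single libraries use CPM plus 0.1. The tests were tested on simulated counts. The labels give both cultures of a number the same day, which pairs them; deviations from the group means had correlations of 0.366 (day 1), 0.408 (day 2) and 0.664 (day 3) within a day, but 0.377 and 0.406 between days 1 and 2 across the groups, and −0.472 to −0.527 between day 3 and another day, so the values set day 3 apart and do not tell days 1 and 2 from each other; the pairing comes from the labels. Treatment was the only term of the main test; the day was added as a block in an alternative fit, given beside a result where it changed the call. Other alternatives were scaling, filter, strand column, DESeq2, limma-voom and leaving out each library or day.

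The 10 genes, the lists and the tests were chosen with earlier results of these data known. Named genes are the 10 genes, the rest of the family by counts, and in each pathway list those past the threshold and the 2 of smallest p; Gpbar1 is also named. List members past the threshold with the day block alone, Tcf7 among them, were named after their values were seen, as were cell type markers. Floors for counts cover counting error only. Intervals of log2 changes use the standard errors and degrees of freedom of the fits, and so include the spread between libraries.

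Sequences are from RefSeq (GRCm38.p6).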

Additional observations from a re-analysis of the deposited data

How the results depend on the processing

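Over 23 alternatives, 191 of 230 log2 changes of the 10 genes kept direction and side of the threshold, 19 newly passed, 0 were lost and 20 changed sign, none of them called (lowest adjusted p 0.486). Ephb2, Ephb4, Epha2, Epha4 and Efna4 never changed sign. The cause was not tested.

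With the replicate block 1770 genes were higher and 1645 lower, 2 of the 10 higher. With no low-count filter the counts were 186 and 249. The DESeq2 test gave 369 and 429, with 1 of the 10 higher, and 1112 and 1162 with the block, with 2 higher. The block with DESeq2 size factors gave 1605 and 1751, with 2 of the 10 higher and 1 lower (Ephb3, adjusted p = 0.0412). Leaving out single libraries gave 2 to 105 genes higher and 6 to 168 lower. Unblocked, 0 and 0 genes passed without day 1 (1189 at an unadjusted p under 0.05), 2 and 1 without day 2, and 2225 and 2067 without day 3, with 2 of the 10 higher. With the block these were 1691 and 1556 without day 1, with 3 of the 10 higher (Epha4 added) and 2 lower (Ephb3 and Ephb4), 777 and 1163 without day 2, and 1938 and 1915 without day 3, with 2 higher in both.

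Efnb1 was −0.0086 with upper quartile scaling, −0.0047 with a filter of 1 CPM, −0.024 on the first strand column, −0.026 without day 1, and with the block −0.025 without day 1 and −0.00023 without day 3. Efnb2 was −0.0056 on the second strand column and −0.036 without day 3, with the block too. Efna1 was 0.019 without day 1, and 0.021 with the block. Epha1 was 0.0055 without day 2, and 0.0049 with the block. Without single libraries Efnb1 ran over −0.033 to 0.038 (−0.027 without INT-777 replicate 1), Efnb2 over −0.040 to 0.065, Efna1 over −0.11 to 0.014 (0.00074 without DMSO replicate 2), Epha1 over −0.057 to 0.0026 and Ephb3 over −0.30 to 0.036.

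Between days DESeq2 called 1 of the 10, and without day 3 0 of them and 0 of all genes differed. Without day 1 and without day 2, 3 of the 10 differed in each fit (Ephb3, Epha2 and Epha4), against 24.8% and 19% of all genes. With 385 to 449 counts Efna1 had an SE of 0.10, against 0.06 for Efnb1. Fits that leave 2 libraries of a group rest on a spread shared over few libraries.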

Other observations

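The genes whose pattern over the 6 libraries was most like that of Epha2 were sought among 9475 genes whose log2 CPM averaged 3 or more, by the root mean square difference of log2 CPM centred on each gene's mean. The nearest was Faap24, a Fanconi anaemia gene, at 0.039, against an SD of 0.28 for Epha2 itself. It had 52.3, 51.8 and 47.4 CPM in the INT-777 libraries of days 1, 2 and 3, against 42.6, 42.8 and 31.3 CPM in the DMSO libraries, and shares 7.02% of its exonic bases with Rhpn2. Pim1, a serine/threonine kinase gene, followed at 0.044, with 20.7, 20.4 and 19.2 CPM with INT-777 and 16.3, 15.5 and 11.8 CPM with DMSO. Mep1b, a meprin metalloprotease gene, followed at 0.048, with 32.6, 33.5 and 30.6 CPM with INT-777 and 27.7, 27.2 and 19.3 CPM with DMSO. As for Epha2, DMSO on day 3 was the lowest library of each. These genes were picked for their likeness over these libraries, so their values are a description.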
